A study of Mus musculus with 8 samples.

Results

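Regulators of G protein signalling, the RGS proteins, were followed at the transcript level in cultures labelled as mouse aortic smooth muscle cells. The genes were taken by name from a list of 8 (Rgs2, Rgs3, Rgs4, Rgs5, Rgs10, Rgs12, Rgs16 and Rgs19) by a rule that holds no threshold on a measured value. Of these, 7 had a named probe set among the 19938 genes of the table. Rgs10, which encodes a small regulator of Gi proteins, had no probe set listed under its symbol alone and is not analysed here. Probe sets listed under several symbols were left out and were not searched for it. Where a gene had several probe sets, the one with the highest mean signal over the 8 arrays stood for it.

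The treated cultures had received 100 nM jasplakinolide, a membrane-permeant compound that binds and stabilises actin filaments, and the control cultures had none. Both groups were primary cells of C57Bl6 mice at passage 3 to 4, kept for 24 h in DMEM with 10% FCS, and each was measured on 4 arrays. The labels name neither the animals nor the cultures behind the replicates and do not say whether RNA was pooled, so the p-values measure the spread between these arrays, which may be technical. Values are log2 RMA signals, and the number of arrays limits their precision.

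When a hormone binds a G protein-coupled receptor, the alpha subunit of the G protein takes up GTP and signals until it hydrolyses it. RGS proteins bind the active alpha subunit and speed that hydrolysis, which shortens the signal. In blood vessels they limit the response to vasoconstrictors such as angiotensin II, endothelin and noradrenaline. Rgs2, Rgs3, Rgs4, Rgs5 and Rgs16 belong to the R4 subfamily, most of whose members are little more than the RGS domain. Rgs12 is a large scaffold that also carries a GoLoco motif, and Rgs19, also known as GAIP, is of the RZ subfamily.

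No RGS gene passed the test for jasplakinolide, and the largest contrasts in the family ran between arrays of the same group. In limma over all genes, 0 of 7 had an adjusted p under 0.05 in either direction, where 0.772% of all genes did. At an unadjusted p under 0.05 the count was again 0 of 7, against 8.87% of all genes. For none of the 7 did the jasplakinolide and control arrays lie apart, which was the case for 6.91% of genes. With the replicate number as a block the count stayed at 0 of 7, against 1.89% of genes. The median log2 difference, jasplakinolide minus control, was -0.08 over the 7 and 0.01 over all genes. In the same fit 8 of 12 contractile smooth muscle markers rose.

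The RGS genes that varied most between arrays were Rgs5, Rgs2, Rgs4 and Rgs16, all on chromosome 1. Rgs5 and Rgs4 are next to each other among protein-coding genes of the RefSeq table, and Rgs2 stands beside Rgs13. The 250 bases before the annotated start of each are printed here because these are the 4 members with the largest SD within groups. They come from RefSeq (GRCm38.p6) and lie at chr1:169655251-169655500 (+ strand), chr1:169747643-169747892 (- strand), chr1:144004150-144004399 (- strand) and chr1:153740103-153740352 (+ strand). Each reads 5′ to 3′ towards the start, and capitals mark CCAAT or its reverse complement ATTGG, and TATAAA or its reverse complement.
Rgs5: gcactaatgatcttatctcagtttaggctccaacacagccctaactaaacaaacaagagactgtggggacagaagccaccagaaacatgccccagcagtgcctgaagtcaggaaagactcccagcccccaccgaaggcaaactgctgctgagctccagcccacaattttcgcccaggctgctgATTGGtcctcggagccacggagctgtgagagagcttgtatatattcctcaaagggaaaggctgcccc
Rgs4: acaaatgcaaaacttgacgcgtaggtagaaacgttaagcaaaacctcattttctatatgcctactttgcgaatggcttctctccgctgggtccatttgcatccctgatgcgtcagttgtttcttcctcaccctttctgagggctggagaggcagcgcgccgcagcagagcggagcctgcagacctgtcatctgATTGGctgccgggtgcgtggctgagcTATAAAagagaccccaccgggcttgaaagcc
Rgs2: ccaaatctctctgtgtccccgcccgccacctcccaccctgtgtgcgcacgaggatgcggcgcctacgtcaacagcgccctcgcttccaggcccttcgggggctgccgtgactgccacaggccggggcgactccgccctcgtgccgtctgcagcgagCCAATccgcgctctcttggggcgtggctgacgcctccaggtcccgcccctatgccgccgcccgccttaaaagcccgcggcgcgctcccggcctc
Rgs16: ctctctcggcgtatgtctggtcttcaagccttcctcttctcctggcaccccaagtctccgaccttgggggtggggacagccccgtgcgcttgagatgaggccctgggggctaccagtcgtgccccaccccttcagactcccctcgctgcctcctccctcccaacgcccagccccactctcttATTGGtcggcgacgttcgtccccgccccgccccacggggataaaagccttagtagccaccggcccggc

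Each of the 4 windows held 1 CCAAT box, whose 5′ end stood 67 bases before the start in Rgs5, 57 in Rgs4, 94 in Rgs2 and 68 in Rgs16. The other 4 listed genes had none in their windows. Over all 8 genes that makes 4 of 12 windows, and the same letters were found in 33.8% of the 32851 windows of the table, so the share in the family was that of the table. TATAAA was found 31 bases before the start of Rgs4 and in windows of Rgs3, and in 12.4% of all windows. The letters TGACG, the core of the cAMP response element, occurred in windows of Rgs2, Rgs4 and Rgs12, and in 17.8% of all windows. The GC box, GGGCGG, occurred in 8 of the 12 windows and 6 of the 8 genes, and in 32.7% of all windows. Overlapping windows of Rgs19 share a GC box, at 224 and at 57 bases before their starts, so that site is counted in each of them. Both strands were searched, and in the 4 printed windows the matches to the first 3 motifs do not overlap each other. No window of the 8 genes held a CArG box, the motif read by serum response factor, or CATTCC, read by TEAD factors. Among all windows 1.5% held the first and 12.6% the second. These matches describe letters in the windows only.

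Rgs5 marks pericytes and arterial smooth muscle in vivo and restrains Gi and Gq signals. Its signal was 7.18, 7.37, 8.29 and 8.83 log2 on jasplakinolide arrays 1 to 4, against 7.60, 7.64, 8.67 and 8.61 on control arrays 1 to 4. In both groups the arrays numbered 1 and 2 were low and those numbered 3 and 4 were high, and the groups overlapped. Rgs5 averaged 7.92 ± 0.78 log2 with jasplakinolide and 8.13 ± 0.59 in control (SD, n = 4 each). The log2 difference was -0.21 ± 0.39 (SE; limma adjusted p = 0.951), with a 95% interval of -1.09 to 0.67. With the replicate number as a block the SE was 0.11, the interval -0.47 to 0.05 and the adjusted p 0.423. Both intervals include 0. The difference was -0.77 with array weights and -0.68 without jasplakinolide 4 and control 2, and it did not pass in either (limma adjusted p = 0.305 and 0.540).

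Rgs2, a selective brake on Gq whose loss raises blood pressure in mice, ran the other way. Its signal was 9.72, 9.61, 9.09 and 8.59 log2 on jasplakinolide arrays 1 to 4, against 9.96, 9.51, 9.05 and 9.11 on control arrays 1 to 4. Here the arrays numbered 1 and 2 were the high ones in both groups. The means were 9.25 ± 0.52 with jasplakinolide and 9.41 ± 0.42 in control (SD, n = 4 each). The log2 difference was -0.16 ± 0.27 (SE; limma adjusted p = 0.949), with a 95% interval of -0.76 to 0.45.

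Rgs4 acts on Gi and Gq, and its protein, like those of Rgs5 and Rgs16, is short-lived because its amino-terminal cysteine marks it for degradation. Its signal was 6.44, 6.30, 6.49 and 6.68 log2 on jasplakinolide arrays 1 to 4, against 6.40, 6.53, 6.78 and 6.69 on control arrays 1 to 4. The pattern was that of Rgs5 on a smaller scale, with overlapping groups. The log2 difference was -0.12 ± 0.10 (SE; limma adjusted p = 0.841).

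Rgs16 limits Gi and Gq signalling and is an inducible gene in many cell types. It had the smallest p among the members. Its signal was 11.65, 11.54, 11.52 and 11.25 log2 on jasplakinolide arrays 1 to 4, against 11.40, 11.39, 11.22 and 11.21 on control arrays 1 to 4. Jasplakinolide arrays 1 to 3 were above all control arrays, and jasplakinolide 4 lay among the controls. The means were 11.49 ± 0.17 with jasplakinolide and 11.31 ± 0.11 in control (SD, n = 4 each). The log2 difference was 0.18 ± 0.09 (SE; 1.14-fold; limma adjusted p = 0.613), with a 95% interval of -0.02 to 0.38. It was positive within each of the 4 replicate numbers (0.25, 0.15, 0.31 and 0.03 for numbers 1 to 4), and with the block the interval was 0.05 to 0.31 and the adjusted p 0.181. The blocked interval leaves out 0, but it is not adjusted for the number of genes tested. Across the alternatives tried its adjusted p ran between 0.0736 and 0.896.

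Rgs12 and Rgs19 did not pass either. Rgs12 had 9.64, 9.57, 9.48 and 9.33 log2 on jasplakinolide arrays 1 to 4, against 9.69, 9.53, 9.62 and 9.53 on control arrays 1 to 4. The groups overlapped and differed by -0.08 ± 0.07 log2 (SE; limma adjusted p = 0.857), with a 95% interval of -0.25 to 0.08. Rgs19 had 10.97, 11.00, 11.00 and 10.89 log2 on jasplakinolide arrays 1 to 4, against 11.00, 10.93, 11.00 and 11.01 on control arrays 1 to 4. The groups overlapped here too and differed by -0.02 ± 0.05 log2 (SE; limma adjusted p = 0.962). In the fit without the block, the 95% interval for Rgs19 corresponds to 0.919-fold to 1.06-fold of control, the narrowest range of the 7 after that of the brighter Rgs3 probe set.

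**Figure D1:**
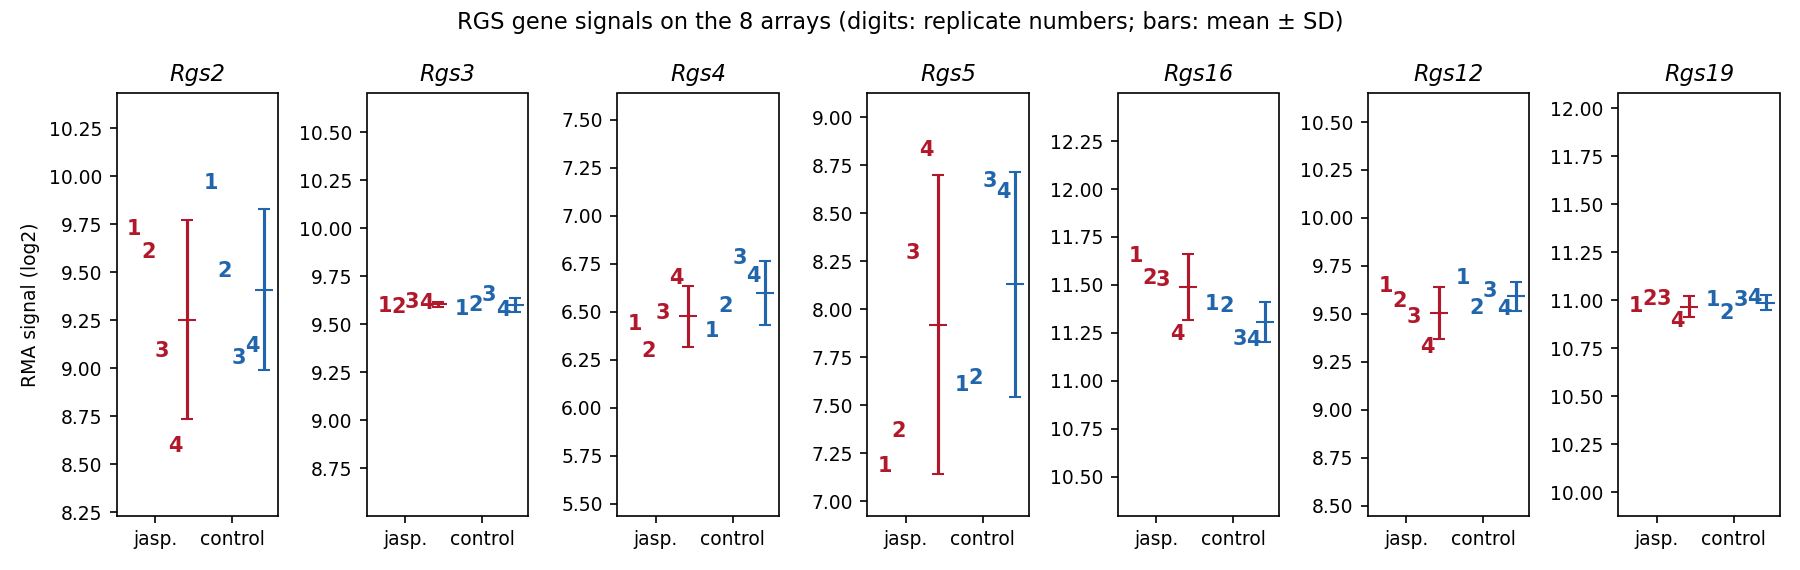
RMA signal (log2) of the 7 RGS genes on each array, jasplakinolide on the left and control on the right of each panel; digits are replicate numbers, bars show mean ± SD (n = 4 each), and every panel spans the same log2 range. Rgs5 runs between 7.18 and 8.83 and Rgs2 between 8.59 and 9.96, with the same replicate numbers high or low in both groups, while Rgs3 and Rgs19 barely vary.

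**Figure D2:**
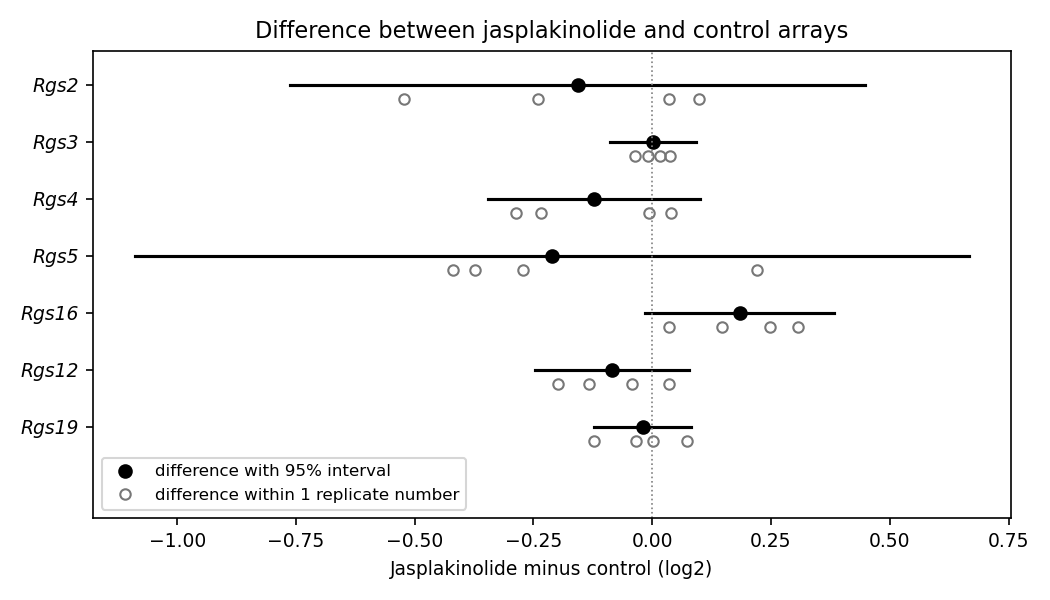
Log2 difference between jasplakinolide and control for the 7 RGS genes (filled points, with limma's 95% interval as a line) and the 4 differences between same-numbered arrays (open circles). All 7 of these intervals, from the fit without the replicate block, include 0, and Rgs16 has all 4 open circles above 0.

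Rgs3, a regulator of Gi and Gq with long and short isoforms, was read by 2 probe sets that disagreed. The brighter, used above, had 9.59, 9.59, 9.62 and 9.61 log2 on jasplakinolide arrays 1 to 4, against 9.58, 9.60, 9.65 and 9.57 on control arrays 1 to 4. Its log2 difference was 0.00 ± 0.04 (SE; limma adjusted p = 0.996). The dimmer had 8.44, 8.48, 8.68 and 8.57 log2 on jasplakinolide arrays 1 to 4, against 8.58, 8.66, 8.82 and 8.73 on control arrays 1 to 4.

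On the dimmer Rgs3 probe set each jasplakinolide array lay under the control array of the same number. The 4 differences were -0.14, -0.18, -0.14 and -0.16 for numbers 1 to 4, although the groups overlapped. The log2 difference was -0.15 ± 0.07 (SE; limma adjusted p = 0.576 over 21789 probe sets). With the replicate block, a fit added after the values had been seen, the SE was 0.03 and the adjusted p 0.106, so this probe set did not pass either. The annotation lists 6 RefSeq transcripts for the brighter and 5 for the dimmer probe set, 2 of them shared. Which isoforms each reads was not tested.

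**Figure D3:**
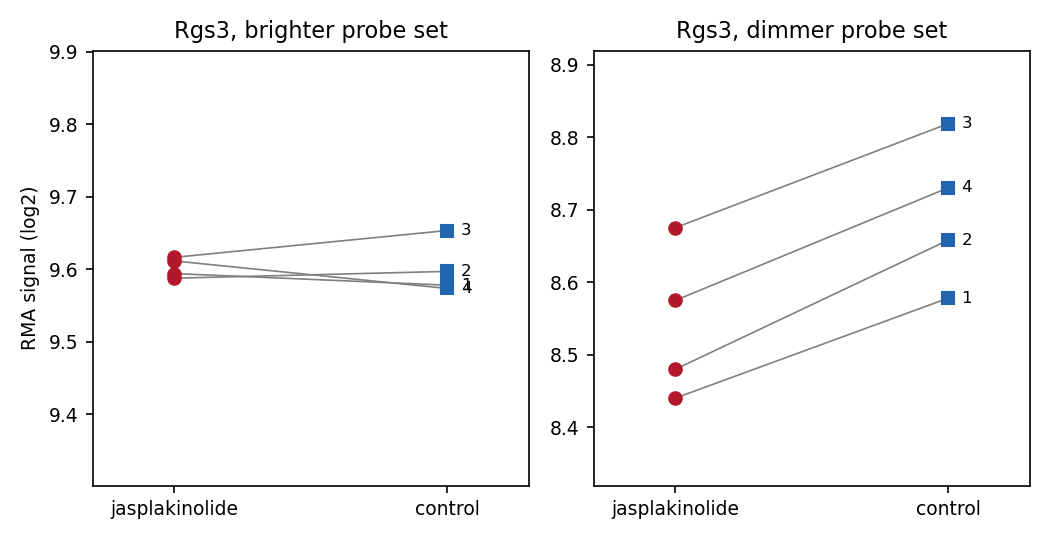
RMA signal (log2) of the brighter (left) and dimmer (right) Rgs3 probe set, with lines joining the jasplakinolide and control arrays of the same replicate number (digits); both panels span the same log2 range. The dimmer probe set is lower with jasplakinolide in all 4 pairs, by 0.14 to 0.18, whereas the lines of the brighter one cross.

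Rgs5 and Rgs2 were among the genes that varied most between arrays of the same group. By the SD within groups, Rgs5 (0.69 log2) ranked 2 and Rgs2 (0.47 log2) ranked 8 among the 19938 genes. The means of the 2 arrays sharing a number were 7.39, 7.50, 8.48 and 8.72 log2 for Rgs5 and 9.84, 9.56, 9.07 and 8.85 log2 for Rgs2, for numbers 1 to 4. These means spanned 1.33 log2 in Rgs5 and 0.99 log2 in Rgs2. With the number as a block, the SE of the treatment difference was 0.11 instead of 0.39 for Rgs5 and 0.10 instead of 0.27 for Rgs2.

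The replicate number itself was tested after its pattern had been seen, with a moderated F test in the blocked limma fit. At an adjusted p under 0.05, 0 of 7 RGS genes and 0% of all genes passed. At an unadjusted p under 0.05 the count was 3 of 7, against 22.5% of all genes. In limma's F test these were Rgs5 (adjusted p = 0.0920), Rgs2 (adjusted p = 0.131) and Rgs16 (adjusted p = 0.198). The adjusted p of that limma test was 0.222 for Rgs4, 0.249 for Rgs12, 0.821 for Rgs3 and 0.897 for Rgs19. Ordered by F, Rgs5 ranked 41 and Rgs2 243 among all genes. After median centring of the arrays Rgs5 passed (adjusted p = 0.0134), among 86 genes.

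**Figure D4:**
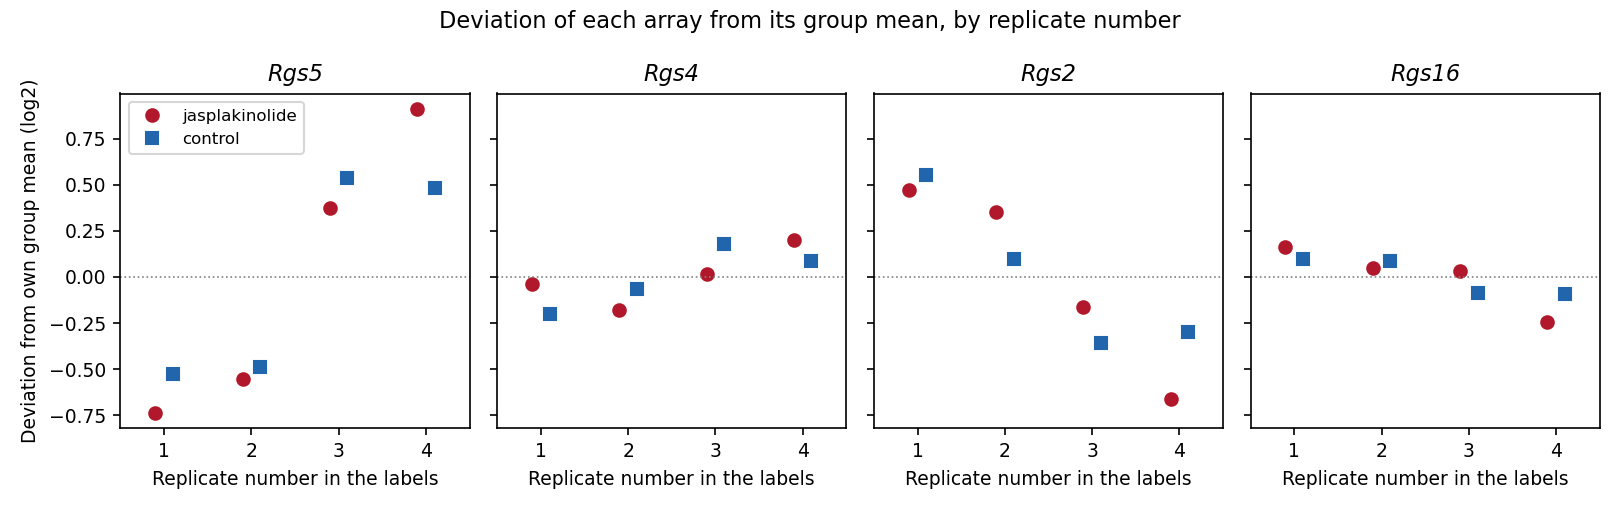
Deviation of each array from the mean of its own group (log2) against the replicate number in the labels, for Rgs5, Rgs4, Rgs2 and Rgs16; circles are jasplakinolide and squares control arrays. In Rgs5 both arrays numbered 1 or 2 lie below 0 and both numbered 3 or 4 above it in each group, and in Rgs2 the reverse.

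Over the 8 arrays Rgs5 correlated with Rgs4 at Pearson r = 0.87, with Rgs2 at -0.90 and with Rgs16 at -0.83. Rgs2 correlated with Rgs12 at 0.84, with Rgs4 at -0.75 and with Rgs16 at 0.61. These are descriptions over 8 arrays that share replicate numbers, and so are the likenesses that follow. The genes most like Rgs16 were Got1 (r = 0.98), a cytosolic aspartate aminotransferase, Necap2 (0.97), an endocytosis adaptor, and the cytokine gene Lif (0.97). Those most like Rgs4 were C1rl (0.97), Fkbp4 (0.97), a co-chaperone of steroid receptors, and Rorb (0.96), a nuclear receptor.

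Rgs5 and Rgs2 were added to this search after their values had been seen. Rgs5 was most like Gja1 (r = 0.99), which encodes the gap junction protein connexin 43, Postn (0.99), the matrix protein periostin, and Fabp7 (0.99), a fatty acid-binding protein. Rgs2 was most like Mtmr10 (0.99), Gprc5a (0.99), an orphan receptor, and Mall (0.99).

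Markers of other cells were set against the replicate number in the same way, and 0 in any list passed at an adjusted p under 0.05 in limma. At an unadjusted p under 0.05, which 22.5% of all genes reached, the count was 7 of 15 (46.7%) for genes of pericytes and other mural cells and 4 of 8 (50%) for adventitial fibroblast markers. It was 3 of 10 (30.0%) for endothelial, 2 of 9 (22.2%) for macrophage and 2 of 12 (16.7%) for contractile markers. Pdgfrb, the receptor through which PDGF recruits mural cells, had 10.98, 10.98, 11.39 and 11.41 log2 on jasplakinolide arrays 1 to 4, against 10.95, 11.06, 11.30 and 11.26 on control arrays 1 to 4. Like Rgs5, it was low on the arrays numbered 1 and 2 (adjusted p = 0.136 in limma's F test). The 7 mural genes did not share 1 order. By the means of same-numbered arrays Cspg4, Kcnj8 and Gja4 were also lower on numbers 1 and 2 than on 3 and 4, whereas Heyl (7.10, 7.33, 6.98 and 7.42 log2 for numbers 1 to 4), Higd1b and Ndufa4l2 were lowest on number 3. The order of Rgs5 also occurred outside the mural list. The fibroblast marker Dcn averaged 12.3, 12.4, 12.7 and 12.6 log2 on numbers 1 to 4 (adjusted p = 0.142 in limma's F test), whereas Dpt was lowest on number 3. The receptor gene Npy1r averaged 6.27, 6.35, 6.90 and 6.84 log2 (adjusted p = 0.0645 in that test), whereas the receptor gene Htr2a was higher on numbers 1 and 2. The 7 mural genes and these 4 others are named for the replicate number after their values were seen.

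The mean signal over the 15 mural genes was 7.97 to 8.24 log2 on jasplakinolide arrays and 7.97 to 8.12 log2 on control arrays. For the fibroblast markers it was 7.53 to 7.68 with jasplakinolide and 7.61 to 7.80 in control, and for the macrophage markers 7.75 to 7.84 and 7.74 to 7.85. Endothelial markers averaged 10.68 to 10.82 log2 with jasplakinolide and 10.93 to 10.97 in control, and contractile markers 10.83 to 11.07 and 10.22 to 10.31. The lowest signal of any probe set on this scale was 2.29 log2, so a value above 0 does not show that a marker is expressed. Bulk arrays cannot tell fewer cells of a type from less RNA per cell, and the part of other cells in the RGS values was not tested.

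The other RGS-named genes, with the binding-protein genes Rgs7bp and Rgs9bp among them, also held none past the treatment test. Their signals were lower on average. Of 15 other RGS-named genes 0 passed in limma (0 at an unadjusted p under 0.05), with log2 differences of -0.11 to 0.14 and a median of 0.02. Their mean signal was 6.05 to 6.19 log2 on jasplakinolide arrays and 6.05 to 6.2 on control arrays. Over the 7 members described above it was 9.28 to 9.36 and 9.3 to 9.43. The lists overlapped in level, as the member Rgs4 averaged 6.54 log2 over the 8 arrays and Rgs14 of the other list 7.57. Dim and absent transcripts cannot be told apart here, so the test cannot separate an unchanged transcript from an absent one. This limit holds for Rgs4 too. Rgs6, a neuronal and cardiac regulator of Gi, differed by 0.12 ± 0.06 (SE; limma adjusted p = 0.593). It was the 1 gene of the 15 whose groups did not overlap, against 6.91% of all genes. They were barely apart, with jasplakinolide 2 at 5.828 log2 and control 2 and 4 at 5.8205. Rgs9, known from photoreceptors and striatum, differed by -0.11 ± 0.05 (SE; limma adjusted p = 0.599). Rgs17, of the same subfamily as Rgs19, had 6.87, 6.85, 7.06 and 7.02 log2 on jasplakinolide arrays 1 to 4, against 6.87, 6.90, 7.27 and 7.21 on control arrays 1 to 4. Its low arrays were again those numbered 1 and 2 (limma F test, adjusted p = 0.161). It is 1 of 3 of the 15 (20%) with an unadjusted p under 0.05 for the replicate number, a share near the 22.5% of all genes, and the other two ran differently. Rgs20 was higher on numbers 1 and 2 (means of same-numbered arrays 6.79, 6.84, 6.61 and 6.69 log2 for numbers 1 to 4), and Rgs8 was lowest on number 3 (7.15, 7.29, 6.96 and 7.27 log2). All 3 were chosen after their values were seen.

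Proteins that share an RGS-homology domain or bind alpha subunits through GoLoco motifs, the receptor kinases and RhoGEFs among them, had 0 of 18 past the limma test (2 at an unadjusted p under 0.05, 11.1%, against 8.87% of all genes), with a median log2 difference of 0.01. Grk4, a receptor kinase, differed by 0.23 ± 0.10 and Gpsm2, a GoLoco protein of spindle orientation, by -0.17 ± 0.08 (SE; limma adjusted p = 0.515 and 0.562).

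Among the alpha subunits on which RGS proteins act, 0 of 15 passed in limma (3 unadjusted, 20%, against 8.87% of all genes), with a median of -0.02. Gnai1, a Gi subunit, averaged 9.90 ± 0.08 log2 with jasplakinolide and 9.59 ± 0.14 in control (SD, n = 4 each), and the groups did not overlap. Its log2 difference was 0.30 ± 0.07 (SE; limma adjusted p = 0.130; 0.0567 with the replicate block). Gna15, a promiscuous alpha subunit, differed by -0.23 ± 0.07 (SE; limma adjusted p = 0.240).

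Of 17 beta and gamma subunits 0 passed in limma (1 unadjusted, 5.88%, against 8.87% of all genes), with a median of 0.04. Gnb5, the partner of the R7-type RGS proteins, differed by 0.10 ± 0.04 and Gng7 by -0.11 ± 0.06 (SE; limma adjusted p = 0.558 and 0.659).

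Of 37 vascular receptors 0 passed in limma (7 unadjusted, 18.9%, against 8.87% of all genes), with a median of 0.05. With the replicate block, where 1.89% of all genes passed, 2 of the 37 rose, Lpar4 and Htr1b. Lpar4, a receptor for lysophosphatidic acid, averaged 9.94 ± 0.26 log2 with jasplakinolide and 9.42 ± 0.12 in control (SD, n = 4 each), without overlap. Its log2 difference was 0.52 ± 0.12 (SE; 1.43-fold; limma adjusted p = 0.109; 0.0338 with the block). Htr1b, the serotonin receptor 1B, named after its values were seen, had a log2 difference of 0.28 ± 0.10 (SE; limma adjusted p = 0.373; 0.0425 with the block). Lpar1, another lysophosphatidic acid receptor, ran the other way at 9.53 ± 0.01 log2 with jasplakinolide and 9.77 ± 0.09 in control (SD, n = 4 each), again without overlap. Its log2 difference was -0.24 ± 0.05 (SE; limma adjusted p = 0.0831; 0.0591 with the block).

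Effectors downstream had 0 of 21 past the limma test (3 unadjusted, 14.3%, against 8.87% of all genes), with a median of 0.04. The adenylyl cyclase gene Adcy4 differed by 0.21 ± 0.05 and the IP3 receptor gene Itpr2 by -0.16 ± 0.05 (SE; limma adjusted p = 0.146 and 0.324), and in both the groups did not overlap. Among 10 arrestins and other partners of RGS proteins 0 passed in limma (3 unadjusted, 30.0%, against 8.87% of all genes), with a median of 0.02. Gipc1, which binds the tail of Rgs19, differed by 0.18 ± 0.05 and Arrb1, an arrestin, by -0.17 ± 0.06 (SE; limma adjusted p = 0.159 and 0.324).

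Of the 15 mural genes 1 rose in limma, where 0.772% of all genes passed in either direction. At an unadjusted p under 0.05 the count was 3 of 15 (20%), against 8.87% of all genes. The median log2 difference of the list was 0.03. The gene that rose was Mcam, the adhesion molecule CD146, at 12.50 ± 0.07 log2 with jasplakinolide and 12.19 ± 0.04 in control (SD, n = 4 each). Its log2 difference was 0.31 ± 0.05 (SE; limma adjusted p = 0.0312), and the count of mural genes past the test was 0 without any 1 of the 8 arrays.

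**Figure D5:**
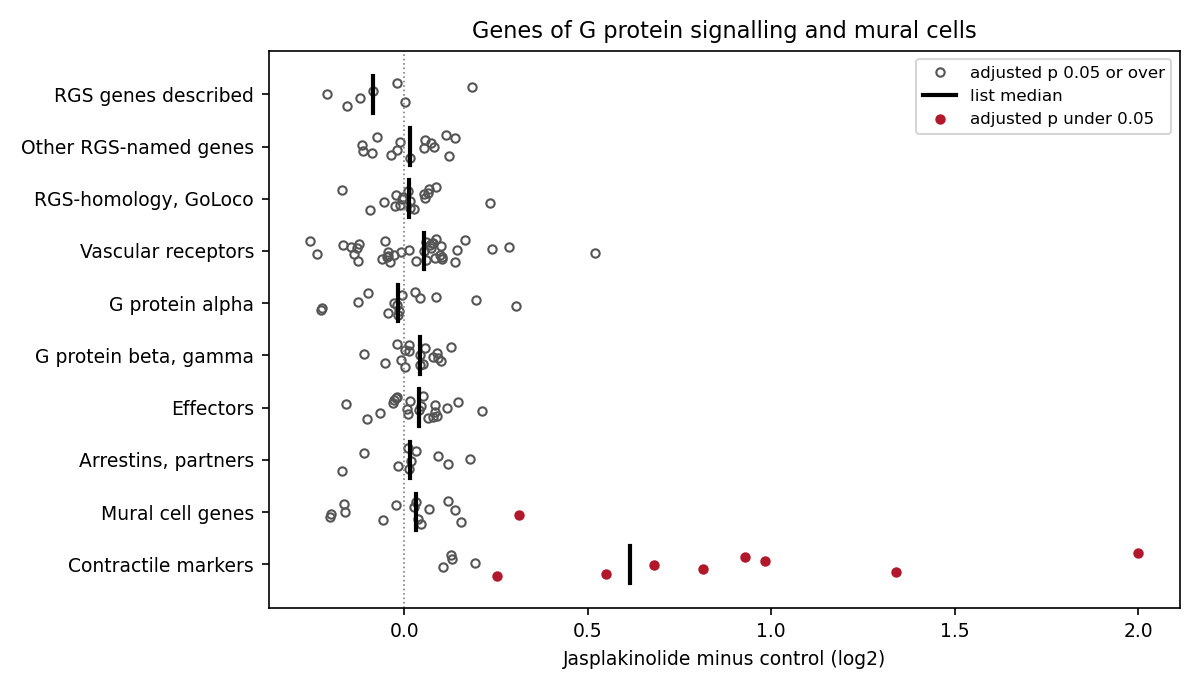
Log2 difference between jasplakinolide and control for the members of each gene list (circles, filled where the limma adjusted p is under 0.05) with the list median as a bar. All 7 RGS genes described and the receptor, G protein and effector genes are open circles, 1 mural gene (Mcam) is filled, and 8 of 12 contractile markers are filled and positive.

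The cultures carried contractile markers, of which 5 of 12 were in the brightest 10% of genes by mean signal, and also endothelial ones, of which 6 of 10 were. On control arrays the mean endothelial signal (10.93 to 10.97 log2) was above the mean contractile signal (10.22 to 10.31 log2). The name smooth muscle for these cultures is that of the labels. Kcnmb1 (log2 difference 2.0 ± 0.13), Cnn1 (1.34 ± 0.07), Synpo2 (0.98 ± 0.15) and Actg2 (0.93 ± 0.10) had the largest rises among the contractile markers (SE; limma adjusted p 0.000254 to 0.0219). The endothelial receptor gene Robo4 fell by 0.41 (SE 0.06; limma adjusted p = 0.0170), and 0 endothelial markers passed without jasplakinolide 1, jasplakinolide 2, control 3 or control 4. At an unadjusted p under 0.05 the endothelial count was 6 of 10 (60%), against 8.87% of all genes. The groups did not overlap in 6 of the 10, against 6.91% of all genes. Of the 10 log2 differences 9 were below 0 and 1 above, where 56.4% of all genes were above. None of 9 macrophage and 8 fibroblast markers passed in limma (3 each at an unadjusted p under 0.05, 33.3% and 37.5%, against 8.87% of all genes), with Lyz2 at 0.17 ± 0.05, Cd68 at -0.24 ± 0.07, Dcn at -0.54 ± 0.12 and Dpt at -0.46 ± 0.11 (log2 difference, SE). With the replicate block Cd68 (limma adjusted p = 0.0425) and Dcn (0.0134) passed, both lower. Jasplakinolide 4 (score 19.4) and control 2 (12.1) had the highest scores on the leading principal component, which held 43.3% of the variance, and control 1 (-13.4) and control 3 (-14.3) had the lowest. Without jasplakinolide 4 and control 2 the count of RGS genes past the test was again 0, and Rgs16 differed by 0.29 log2 (limma adjusted p = 0.147).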

How the data were processed

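Expression was read on 8 Affymetrix arrays, 4 per group. The deposited table holds log2 signals of 35556 probe sets. The submitters' processing notes name RMA and Affymetrix Expression Console, without versions. By the platform annotation 21789 probe sets had 1 symbol, 1621 several and 12146 none. Only the first kind was used, and for 999 genes with several probe sets the one with the highest mean was kept, which left 19938 genes.

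The jasplakinolide arrays were set against the controls with limma 3.58.1 under R 4.3.3 (lmFit and eBayes, two-sided, 6 residual and 3.43 prior degrees of freedom). P-values were adjusted by Benjamini-Hochberg over the whole gene table, with 0.05 as the threshold. Errors of differences are limma's SEs. The fit was also run on simulated data with independent noise on each array. In the simulated treatment test arrays of the same replicate number shared no noise, so it does not cover such sharing. Both groups carry replicate numbers 1 to 4 in the labels. Across genes, deviations from the group mean correlated at 0.24 to 0.56 between arrays with the same number and at -0.62 to 0.52 between others. On this ground, which comes from the data and not the labels, the number was treated as a pairing and used as a block in an alternative fit. Of the 8 arrays, 6 correlated best with the array of their own number. The exceptions were jasplakinolide 4 and control 2, which correlated best with each other (0.521). With their own numbers they correlated at 0.443 and 0.241.

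The members and gene lists were chosen with earlier results of these data known. Besides the members, the text names up to 4 genes per list past the threshold, or else the 2 with the smallest p. It also names the 3 genes with the highest Pearson r to each of the 2 members with the smallest p. Genes named outside these rules are marked as chosen after their values were seen. The alternatives were the replicate block, an intensity trend with robust prior, array weights, only the brighter 75% or 50% of genes, cyclic loess, renewed quantile normalization, centring on array medians, other treatments of probe sets, a threshold of 0.01 and leaving out arrays. The test of the replicate number and the blocked fit of the dimmer Rgs3 probe set were added after the data had been seen. Promoter windows and gene order came from RefSeq tables (GRCm38.p6).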

Additional observations from a re-analysis of the deposited data

Results flagged for a closer look

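Among 31 named genes in 2 groups each, 2 groups held an array far from the other 3 by Dixon's criterion, where chance marks about 1 in 20 groups. In Rgs19 control 2 (10.93 log2) lay below the other control arrays (11.00 to 11.01), with a gap of 0.853 of the group's range. In Gpsm2 jasplakinolide 1 (7.94 log2) lay below the other jasplakinolide arrays (all 7.98 log2), with a gap of 0.919 of the range.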

How the results depend on the processing

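Of 134 values of the 7 RGS genes under the alternatives, 0 passed the threshold (limma adjusted p 0.0736 to 0.999) and 119 kept their sign. Without single arrays the log2 difference ran from -0.3138 to 0.063 for Rgs2 (positive without jasplakinolide 4 or control 1), -0.0071 to 0.0195 for Rgs3, -0.19 to -0.06 for Rgs4, -0.5149 to 0.0342 for Rgs5 (positive without jasplakinolide 1), -0.13 to -0.03 for Rgs12, 0.13 to 0.27 for Rgs16 and -0.0387 to 0.005 for Rgs19 (positive without jasplakinolide 4). With array weights the difference was 0.1892 for Rgs2, -0.22 for Rgs4, -0.77 for Rgs5, -0.01 for Rgs12 and 0.29 for Rgs16. Without jasplakinolide 4 and control 2 together it was 0.0959 for Rgs2, -0.21 for Rgs4, -0.68 for Rgs5, -0.05 for Rgs12 and 0.29 for Rgs16. That of Rgs3 was -0.0044 after median centring, -0.0023 without those 2 arrays, -0.0759 as the mean of its probe sets and -0.1536 on the dimmer probe set, with or without the replicate block. Rgs4 was not among the brighter 50% of genes. The replicate block, which pairs arrays by number, changed no call of an RGS gene.

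Over all genes 154 passed, against 377 with the replicate block, 296 among the brighter 50%, 276 after a second quantile normalization, 299 after cyclic loess, 358 with an intensity trend and robust prior, 457 with array weights, 45 at a threshold of 0.01, and 43 to 150 without single arrays. With jasplakinolide 4 and control 2 left out together the count was 109. The causes were not tested, except that the stricter threshold lowers a count by construction. For the replicate number, median centring gave 1 RGS gene (Rgs5) and 86 genes past the threshold and cyclic loess 0 and 3, against 0 and 0 on the deposited values. With the block 3 endothelial markers passed, all lower, against 1 without it. No measure of signal over background was used, so dim and absent transcripts cannot be told apart.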
